A study of Mus musculus with 12 samples.

Results

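The genes described here are 10 imprinted genes of the mouse that lie outside the Dlk1-Meg3 domain, namely H19, Igf2, Igf2r, Cdkn1c, Grb10, Mest, Peg3, Plagl1, Peg10 and Sgce. They were found by their symbols in a deposited expression table of 24346 genes, and all 10 were present. RNA had been sequenced from 12 libraries of cultured mouse fibroblasts, in 4 groups with 3 replicates each. The groups were NIH-3T3 SHHN, NIH-3T3 control, MLg SHHN and MLg control. NIH-3T3 is an established line from embryos of the NIH/Swiss strain, and MLg one from newborn lung of the ddY strain. SHHN is the recombinant amino-terminal part of Sonic hedgehog, a secreted ligand, given at 1 µg/ml, and controls received vehicle. All 4 groups were treated for 48 h in medium with 0.5% serum after growth to 85% confluence, so the controls share the low serum. The labels do not say whether replicates were separate cultures, and p-values therefore measure only the spread between these libraries, which may be technical. Each fibroblast source is represented by 1 cell line.

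An imprinted gene is expressed mainly from the copy inherited from either the mother or the father, under the control of DNA methylation set in the germ line. Many imprinted genes act on fetal growth, with paternally expressed genes such as Igf2 promoting it and maternally expressed genes such as Igf2r, Grb10 and Cdkn1c restraining it. Imprinted genes tend to lie in clusters that share control regions, as H19 and Igf2 do, and many are turned down after birth. The values given here add up both parental copies, so they give levels and not the imprint itself.

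The values are FPKM, fragment counts divided by transcript length and by the size of the library, so that levels can be set side by side between genes. The sequencing depth is unknown. Fold changes come from limma, fitted to log2(FPKM + 0.5) over 12379 genes (those that reached 0.5 FPKM in 3 or more of the libraries), and a gene is said to rise or fall where its adjusted p was below 0.05. All 10 imprinted genes passed this filter, but Cdkn1c, Sgce and Peg10 passed it only through the MLg libraries, so that a difference between the lines had to follow for these 3. The 10 genes were chosen by name, at a time when their FPKM in these 12 libraries and their fold changes in both lines were already known, and with no threshold on those values. Their fold changes and adjusted p-values are therefore a description of each gene, and no support is drawn from them for the group as a whole.

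Across libraries, Spearman correlations over genes were 0.969 to 0.977 within groups and 0.928 to 0.968 between groups. Gli1, the factor induced by the pathway, reached at least 139 FPKM in every NIH-3T3 SHHN library and at least 113 FPKM in every MLg SHHN library, and no control library exceeded 0.906 FPKM. Of 8 fibroblast markers, 8 averaged at least 1 FPKM in NIH-3T3 and 7 in MLg, where Thy1 was at most 0.106 FPKM. Their summed level was 8391 to 10353 FPKM in NIH-3T3 SHHN and 13014 to 14352 FPKM in NIH-3T3 control, and 7792 to 9271 FPKM in MLg SHHN against 8669 to 9909 FPKM in MLg control. Epithelial markers summed to at most 0.62 FPKM in any library, leukocyte markers to at most 1.74 FPKM and muscle markers to at most 2.54 FPKM. The 4 endothelial markers summed to 6.73 to 25.3 FPKM in NIH-3T3 SHHN against 5.75 to 7.93 FPKM in NIH-3T3 control, and to 5.78 to 6.51 FPKM in MLg SHHN against 0.101 to 0.154 FPKM in MLg control. The lowest sum of NIH-3T3 SHHN was that of replicate 1. In the SHHN libraries Cdh5 and Tek carried these sums, and in NIH-3T3 control Tek did. Kdr was at most 0.0128 FPKM and Pecam1 at most 0.137 FPKM. The part of these markers in the results was not tested. In bulk RNA, fewer cells that express a gene cannot be told apart from less RNA of it per cell.

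Among these genes, 3 carry microRNAs inside their RefSeq bounds. H19 holds miR-675, Igf2 holds miR-483 and Mest holds miR-335. These 3 also had the largest estimated log2 differences between the control groups of the lines, among the genes expressed in both. The 95% interval of H19 (3.59 to 4.38) overlapped that of Plagl1 (2.98 to 4.38), which holds none, so this order is not firm. Their mature sequences from RefSeq (GRCm38.p6) are shown 5′ to 3′, to identify the microRNAs these genes carry. In GENCODE M21, miR-675 lies in an exon of 3 of the 7 H19 transcripts, while miR-483 and miR-335 lie in no exon of Igf2 or Mest, so the spliced host RNA does not hold them. Capitals mark the seed, bases 2 to 8, and no seed is shared between them.
miR-675-5p (H19): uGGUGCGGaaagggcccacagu
miR-675-3p (H19): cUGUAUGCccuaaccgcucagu
miR-483-5p (Igf2): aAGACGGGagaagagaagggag
miR-483-3p (Igf2): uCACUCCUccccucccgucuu
miR-335-5p (Mest): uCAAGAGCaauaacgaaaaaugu
miR-335-3p (Mest): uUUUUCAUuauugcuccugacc
The table's rows for the hairpins Mir675, Mir483 and Mir335 are listed at 0 in all 12 libraries, so the microRNAs themselves were not measured here.

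Promoter windows from RefSeq, 250 bases before to 50 bases after a start, matched 6 of the 10 genes (Igf2, Igf2r, Grb10, Mest, Peg3 and Plagl1) with 12 windows. The windows of Plagl1 (chr10:13090582-13090881, plus strand) and of the second Mest start (chr6:30737800-30738099, plus strand) are shown, because these genes had the furthest fall and the furthest rise in NIH-3T3. Capitals mark CG pairs, the sites where imprints are laid down as methylation.
Plagl1: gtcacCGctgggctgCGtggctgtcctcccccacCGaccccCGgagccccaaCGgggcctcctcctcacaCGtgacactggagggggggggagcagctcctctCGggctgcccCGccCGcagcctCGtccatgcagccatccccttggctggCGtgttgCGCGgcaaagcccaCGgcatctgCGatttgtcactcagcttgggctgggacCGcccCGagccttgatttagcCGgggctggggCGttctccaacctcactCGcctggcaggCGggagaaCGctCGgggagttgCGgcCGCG
Mest: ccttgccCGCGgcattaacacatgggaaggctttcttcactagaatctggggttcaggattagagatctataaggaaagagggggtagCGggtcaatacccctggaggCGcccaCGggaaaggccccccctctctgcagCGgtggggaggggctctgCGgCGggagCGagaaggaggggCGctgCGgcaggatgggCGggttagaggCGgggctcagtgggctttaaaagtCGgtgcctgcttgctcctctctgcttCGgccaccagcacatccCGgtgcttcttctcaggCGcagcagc
The Plagl1 window holds 26 CG pairs and the Mest window shown 17, and the median of all 32851 promoter windows is 7. The other Mest windows hold 8 and 17 CG pairs, and the latter is nearly the same stretch as the window shown. On either strand, the GLI motif GACCACCCA is in 0 of the 12 windows and in 0.253% of all windows. Its inner part CCACCCA is in 0 of the 12 windows and in 9.3% of all. The motif GGGGCCCC, known to be bound by the Plagl1 protein, is in the Peg3 window alone among the 12 and in 1.08% of all. A match or its absence in these windows describes letters and not binding.

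**Figure D1:**
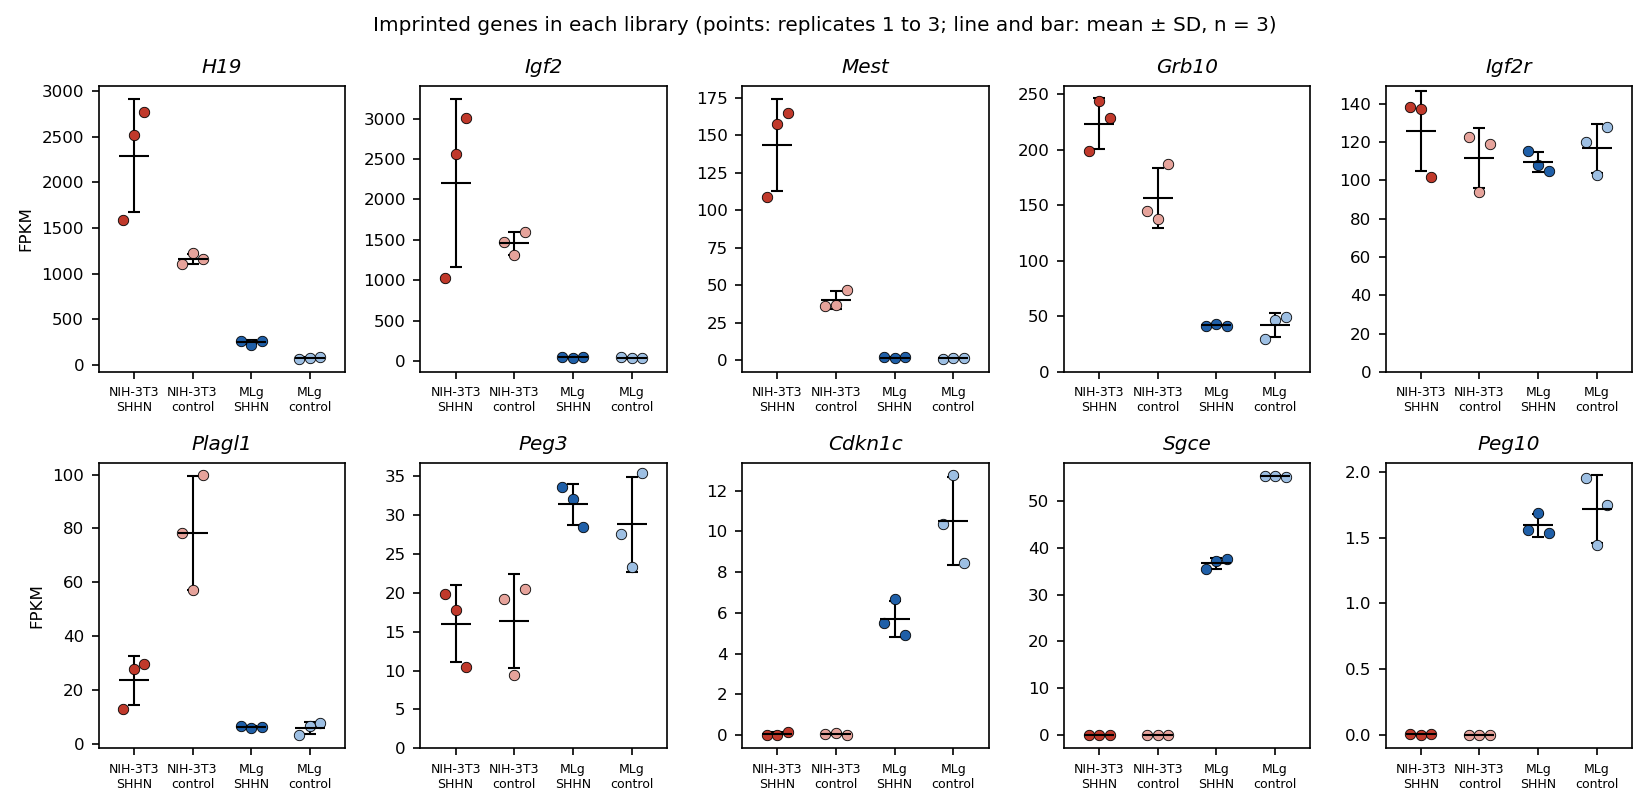
FPKM of each imprinted gene in each library, with 1 panel per gene, the 4 groups along the x axis and FPKM on the y axis; points are replicates 1 to 3, lines and bars are mean ± SD (n = 3). H19, Igf2, Mest, Grb10 and Plagl1 are higher in NIH-3T3, Cdkn1c, Sgce and Peg10 are near 0 there, and Igf2r is level across the groups.

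H19 rose with SHHN in both lines, while its neighbour Igf2 did not pass the test in either. H19 is a maternally expressed long noncoding RNA, and Igf2, an insulin-like growth factor, is expressed from the paternal copy. The genes are read from the same strand on chromosome 7 (H19 at 7:142575530-142578146, Igf2 at 7:142650768-142666816) with 72621 bases between them, and are known to compete for shared enhancers through a methylated control region.

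H19 was at 1588, 2521 and 2767 FPKM in NIH-3T3 SHHN libraries 1 to 3, against 1105, 1220.5 and 1157 FPKM in NIH-3T3 control libraries. In MLg it was at 265, 218 and 263 FPKM with SHHN, against 65.7, 70.5 and 83.0 FPKM in control. Treated libraries were above all control libraries in both lines, and NIH-3T3 SHHN replicate 1 was the lowest of its group. The log2 fold change was 0.94 in NIH-3T3 (SE 0.18, limma adjusted p = 0.0014) and 1.76 in MLg (SE 0.18, limma adjusted p = 8.53e-06). The smaller rise in NIH-3T3 gave a difference of -0.82 between the lines, which did not pass (SE 0.26, limma adjusted p = 0.0529). It passed with the replicate number as a block (adjusted p = 0.0458), with median-ratio scaling (0.0448), without NIH-3T3 SHHN replicate 3 (0.0263) and without MLg control replicate 3 (0.0459). By rank within a library, H19 was number 56, 13 and 15 of all genes in NIH-3T3 SHHN, against 84, 97 and 92 in NIH-3T3 control.

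Igf2 was at 1030.4, 2567 and 3011 FPKM in NIH-3T3 SHHN libraries 1 to 3, against 1476, 1310 and 1594 FPKM in NIH-3T3 control. NIH-3T3 SHHN replicate 1 lay below every control library and the other treated libraries above them. The log2 fold change was 0.46 (95% interval -0.22 to 1.13, limma adjusted p = 0.298). Without NIH-3T3 SHHN replicate 1 it was 0.93 (adjusted p = 0.00361), and with quantile normalization 0.97 (adjusted p = 0.0435), so the call turned on that library and on the scaling. In MLg, Igf2 was at 53.5, 43.4 and 50.4 FPKM with SHHN against 54.4, 34.2 and 34.0 FPKM in control, and the groups overlapped (0.29, 95% interval -0.38 to 0.96, limma adjusted p = 0.575). The difference between the lines was 0.17 (95% interval -0.79 to 1.12).

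The ratio of Igf2 to H19, both per length, was 0.649, 1.02 and 1.09 in NIH-3T3 SHHN libraries, against 1.34, 1.07 and 1.38 in NIH-3T3 control. In MLg it was 0.202, 0.198 and 0.192 with SHHN, against 0.828, 0.485 and 0.41 in control. Ratios with SHHN were below all control ratios in MLg, while those in NIH-3T3 overlapped. The plot of both genes shows the NIH-3T3 libraries on both sides of equal levels. All MLg libraries lie on the H19 side, and the MLg SHHN libraries lie furthest towards H19.

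**Figure D2:**
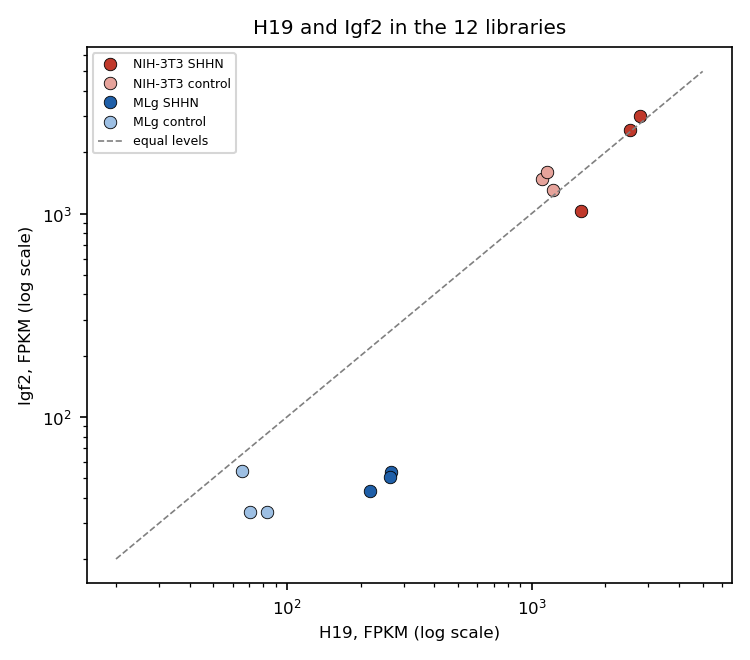
Igf2 against H19 in each of the 12 libraries, both in FPKM on log axes, with a dashed line at equal levels. The MLg SHHN libraries sit at 218 to 265 FPKM of H19 and 43.4 to 53.5 FPKM of Igf2, and NIH-3T3 SHHN replicate 1 lies apart from the other NIH-3T3 SHHN libraries, at 1588 FPKM of H19 and 1030.4 FPKM of Igf2.

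Igf2os, a noncoding RNA read against Igf2 over 7137 shared bases, rose in NIH-3T3. It was at 8.58, 5.55 and 6.04 FPKM in NIH-3T3 SHHN, against 3.75, 3.50 and 4.19 FPKM in NIH-3T3 control (log2 fold change 0.72, SE 0.18, limma adjusted p = 0.00753). In MLg it averaged 0.672 FPKM with SHHN and 0.834 FPKM in control, and was not called (-0.17, limma adjusted p = 0.572). The difference between the lines was 0.89 (SE 0.26, limma adjusted p = 0.0342), a call lost in 7 of 12 fits with a library left out. Replicate 1, the lowest of the NIH-3T3 SHHN libraries for Igf2, was the highest for Igf2os. Whether the counting used strand is not given in the sources used here, so reads of overlapping genes on opposite strands cannot be told apart.

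Igf2r and Grb10 are maternally expressed restraints on growth factor signalling. Igf2r, the receptor that clears Igf2 from the cell surface and also binds mannose 6-phosphate, was the most level of the genes. It was at 138, 137 and 102 FPKM in NIH-3T3 SHHN against 122, 93.8 and 119 FPKM in NIH-3T3 control, and at 115, 108 and 105 FPKM in MLg SHHN against 119.8, 103 and 128 FPKM in MLg control. All groups overlapped, with log2 fold changes of 0.17 in NIH-3T3 (95% interval -0.15 to 0.48) and -0.09 in MLg (95% interval -0.40 to 0.22). Airn, the noncoding RNA that is known to silence Igf2r on the paternal copy, overlaps it by 28396 bases on the other strand of chromosome 17. Airn was at 10.0, 16.7 and 18.1 FPKM in NIH-3T3 SHHN and 13.5, 15.9 and 14.1 FPKM in NIH-3T3 control, and its level did not pass in either line.

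Grb10, an adaptor that dampens the insulin and IGF1 receptors, was at 199, 244 and 228 FPKM in NIH-3T3 SHHN, against 145, 137 and 188 FPKM in NIH-3T3 control. The groups did not overlap, and Grb10 rose by 0.52 on the log2 scale (SE 0.17, limma adjusted p = 0.0356). The call ended without NIH-3T3 SHHN replicate 2 (adjusted p = 0.122) or 3 (0.0825), without NIH-3T3 control replicate 1 (0.0921) or 2 (0.0932), with no filter (0.0603) and with 6 libraries per fit (0.0549). In MLg, Grb10 averaged 42.0 ± 1.00 FPKM with SHHN and 42.0 ± 10.5 FPKM in control (SD, n = 3 each), and the difference between the lines did not pass (0.49, limma adjusted p = 0.218), although it did without MLg control replicate 1 (adjusted p = 0.034).

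Mest, a paternally expressed gene for a hydrolase-like protein of the endoplasmic reticulum, had the furthest rise of the group in NIH-3T3. It was at 108, 157 and 165 FPKM in NIH-3T3 SHHN, against 36.2, 36.8 and 47.2 FPKM in NIH-3T3 control. The lowest treated library was above the highest control library, and the log2 fold change was 1.82 (SE 0.19, limma adjusted p = 7.02e-06). In MLg, Mest was near the limit of the filter, at 1.92, 1.43 and 2.14 FPKM with SHHN against 0.989, 1.36 and 1.65 FPKM in control, with overlap (0.35, 95% interval -0.06 to 0.76, limma adjusted p = 0.229). The difference between the lines was 1.47 (SE 0.27, limma adjusted p = 0.00294). The 3′ end of Mest overlaps Copg2, a coat protein gene read on the other strand, by 913 bases. Copg2 averaged 69.8 ± 17.8 FPKM in NIH-3T3 SHHN and 49.4 ± 6.03 FPKM in NIH-3T3 control. The groups overlapped, and Copg2 was called higher in NIH-3T3 (0.47, limma adjusted p = 0.0372) but not in MLg. With the strand setting unknown, reads of the shared bases cannot be told apart.

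Plagl1, a paternally expressed zinc finger factor also called Zac1, moved the other way in NIH-3T3. In mouse it is known to bind control regions of other imprinted genes, among them Igf2, H19 and Cdkn1c. It was at 12.99, 27.9 and 29.6 FPKM in NIH-3T3 SHHN, against 78.2, 57.1 and 99.7 FPKM in NIH-3T3 control. All treated libraries were below all control libraries, with replicate 1 again the lowest. Plagl1 fell by 1.77 on the log2 scale (SE 0.33, limma adjusted p = 9.42e-04). In MLg it was at 6.59, 5.91 and 6.09 FPKM with SHHN against 3.15, 6.74 and 7.63 FPKM in control, with overlap (0.16, 95% interval -0.54 to 0.86). The difference between the lines was -1.92 (SE 0.46, limma adjusted p = 0.0143). The noncoding RNA Hymai, which shares 5056 bases with Plagl1, was at most 0.162 FPKM in any library.

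Cdkn1c encodes p57, a maternally expressed inhibitor of cyclin-dependent kinases, at 7:143458339-143461059. It was expressed in MLg and near 0 in NIH-3T3. In MLg it was at 5.49, 6.69 and 4.94 FPKM with SHHN, against 10.4, 12.7 and 8.43 FPKM in control. All treated libraries were below all control libraries, and the log2 fold change was -0.82 (SE 0.17, limma adjusted p = 0.00325). The call ended with a pseudocount of 0.1 (-0.86, SE 0.30, limma adjusted p = 0.0587), where the change kept its size and its SE grew. The NIH-3T3 libraries near 0 enter that SE, since the fit pools the spread over all 12 libraries. In NIH-3T3 no library exceeded 0.152 FPKM, in either group, so no SHHN effect on it could be measured there.

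Sgce and Peg10, paternally expressed neighbours on chromosome 6, were on in MLg and near 0 in NIH-3T3. Sgce encodes epsilon-sarcoglycan, a membrane protein, and Peg10 a protein derived from a retrotransposon that is needed in the placenta. Sgce (6:4674350-4747204, minus strand) and Peg10 (6:4747306-4760517, plus strand) start head to head, with 101 bases between them. Sgce was at 35.4, 37.0 and 37.7 FPKM in MLg SHHN, against 55.3, 55.3 and 55.1 FPKM in MLg control. Replicates lay within a narrow range and the groups did not overlap, and Sgce fell by 0.58 on the log2 scale (SE 0.12, limma adjusted p = 0.00226). With a pseudocount of 0.1 the fall was 0.59, but its SE was 0.24 and the call ended (limma adjusted p = 0.105). The fit pools the spread over all 12 libraries, so the NIH-3T3 libraries near 0 enter this SE. Peg10 was at 1.55, 1.69 and 1.53 FPKM in MLg SHHN against 1.95, 1.44 and 1.75 FPKM in MLg control, with overlap and no call (-0.08, 95% interval -0.37 to 0.21). In NIH-3T3, Sgce was listed at 0 in 2 of the 3 libraries of each group and at most 0.0927 FPKM, and Peg10 at 0 in all control libraries and at most 0.0115 FPKM with SHHN.

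The genes next to this pair were read after their values had been seen, as all genes of the table within 500 kb. Casd1, a sialic acid acetyltransferase gene that ends 30994 bases before Sgce, was expressed in NIH-3T3 and near 0 in MLg. It was at 17.0, 16.1 and 19.04 FPKM in NIH-3T3 SHHN and 26.5, 17.5 and 28.7 FPKM in NIH-3T3 control, against at most 0.0586 FPKM in MLg SHHN and 0 in all MLg control libraries. Col1a2, the collagen gene on its other side, was at 1526 to 3252 FPKM across all 12 libraries. Ppp1r9a and Pon1 beyond Peg10 were below 0.1 FPKM in every library, and Pon3 was at 2.23 to 12.7 FPKM. Pon3 averaged 2.425 FPKM in NIH-3T3 SHHN and 5.386 FPKM in NIH-3T3 control, against 10.27 FPKM in MLg SHHN and 9.899 FPKM in MLg control. Within this stretch, Casd1 differed between the lines in the opposite direction to Sgce and Peg10, while the Pon3 means differed in the same direction as theirs.

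**Figure D3:**
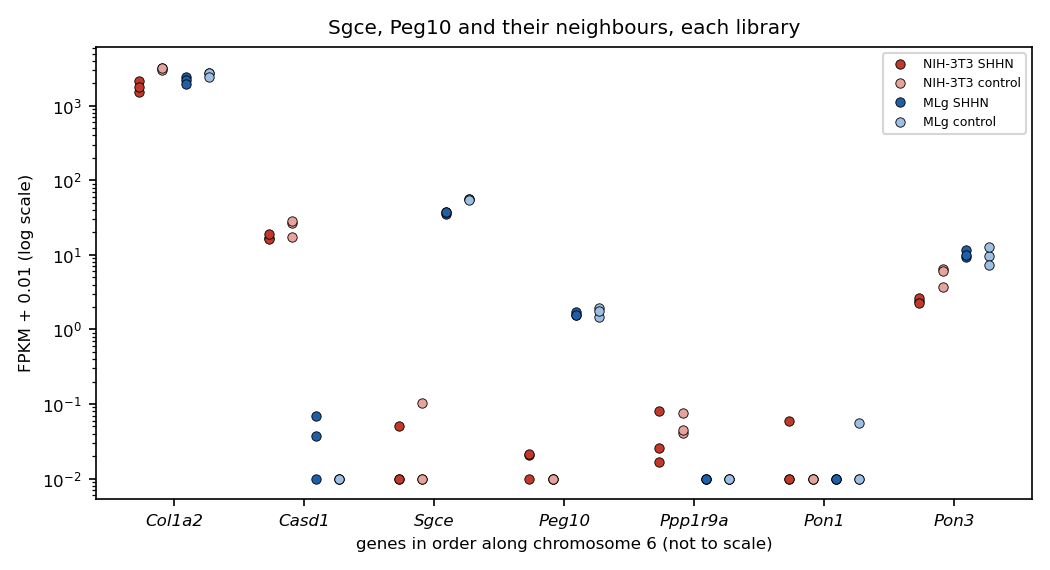
FPKM + 0.01 on a log axis for Sgce, Peg10 and the genes within 500 kb, in their order along chromosome 6, with a point for each library coloured by group. Casd1 is high in NIH-3T3 and near 0 in MLg, Sgce and Peg10 are high in MLg and near 0 in NIH-3T3, and Col1a2 is at 1526 FPKM or more in all libraries.

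Peg3, a paternally expressed zinc finger gene on chromosome 7, did not pass with SHHN. It was at 19.9, 17.9 and 10.4 FPKM in NIH-3T3 SHHN against 19.2, 9.47 and 20.4 FPKM in NIH-3T3 control, and at 33.6, 32.1 and 28.5 FPKM in MLg SHHN against 27.6, 23.4 and 35.5 FPKM in MLg control. The groups overlapped in each line, and the 95% intervals were -0.60 to 0.59 in NIH-3T3 and -0.46 to 0.74 in MLg. Peg3os, an RNA that RefSeq places wholly within Peg3, was at 14.9 to 38.9 FPKM over all libraries and was not called in either line, except in NIH-3T3 without control replicate 2 (-0.67, limma adjusted p = 0.00468).

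Counted together, 3 of the 10 genes rose in NIH-3T3 (H19, Mest and Grb10) and 1 fell (Plagl1), where 16.6% of all 12379 genes tested rose and 14.8% fell, 31.4% in all. In MLg, 1 rose (H19) and 2 fell (Cdkn1c and Sgce), against 12.8% and 10.0% of all genes, 22.8% together. The median log2 fold change of the 10 was 0.09 in each line, against -0.01 in NIH-3T3 and 0.00 in MLg over all genes tested, and in NIH-3T3 it takes in the 3 genes near 0, whose fitted change is set by the pseudocount. H19 was the gene called in both lines. NIH-3T3 SHHN replicate 1 was the lowest of its group for H19, Igf2, Mest, Grb10 and Plagl1. Without it the log2 fold change in NIH-3T3 was 1.19 for H19 (limma adjusted p = 4.69e-05), 2.005 for Mest (6.44e-06), 0.60 for Grb10 (0.0384) and -1.39 for Plagl1 (0.00388). The SHHN effect was more positive in NIH-3T3 than in MLg for Mest and more negative for Plagl1, where 7.48% and 5.95% of all genes were so called, 13.4% together. For Cdkn1c, Sgce and Peg10, near 0 in NIH-3T3, no SHHN effect could be measured there, and no difference between the lines is read. The plot of fold changes places the responses of both lines side by side.

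**Figure D4:**
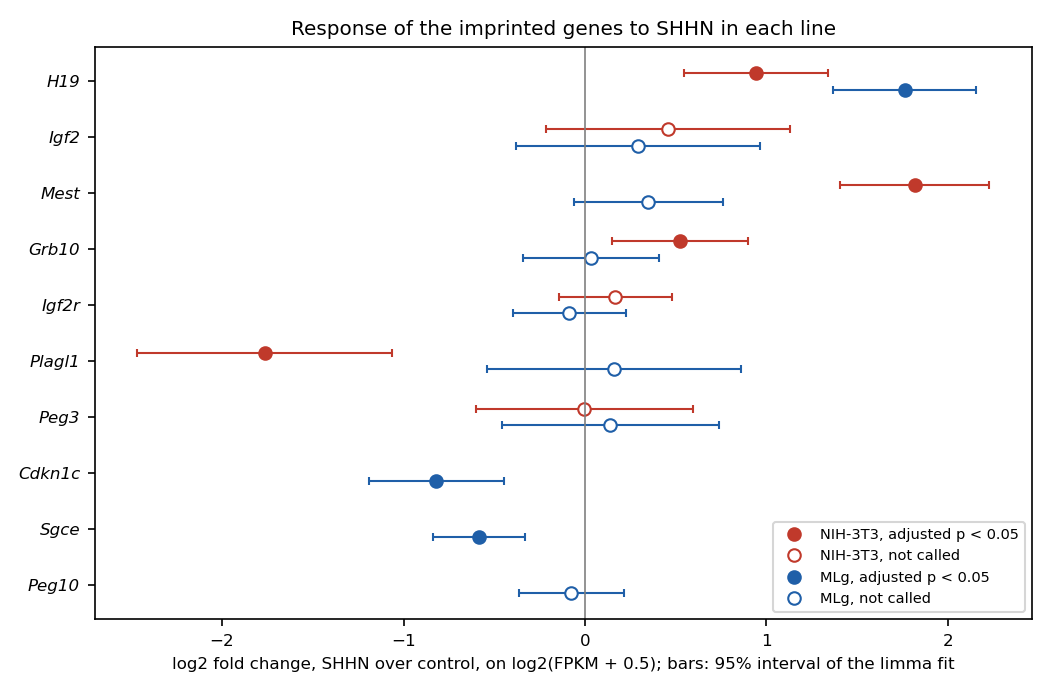
Log2 fold change, SHHN over control, of each imprinted gene on the log2(FPKM + 0.5) scale (x axis), in NIH-3T3 (red) and MLg (blue), with the 95% interval of the limma fit; Cdkn1c, Sgce and Peg10, near 0 in NIH-3T3, are shown for MLg alone, and filled points have an adjusted p below 0.05. H19 is filled on the right in both lines, Mest and Grb10 on the right and Plagl1 on the left in NIH-3T3, and Cdkn1c and Sgce on the left in MLg.

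Between the lines without ligand, Igf2, H19, Mest, Plagl1 and Grb10 were higher and Peg3 lower in NIH-3T3. These are 6 of the 7 genes that did not owe their place in the test to MLg alone, where 24.4% of all genes tested were higher and 25.7% lower, 50.1% in all. Cdkn1c, Sgce and Peg10 are left out of this count, since the filter fixed their direction. The shares of all genes keep such genes, so the count and the shares are over unlike sets. Igf2 averaged 1460 ± 143 FPKM in NIH-3T3 control and 40.9 ± 11.7 FPKM in MLg control (SD, n = 3 each), a log2 difference of 5.17 (SE 0.31, limma adjusted p = 1e-08). H19 averaged 1161 ± 57.9 FPKM in NIH-3T3 control and 73.1 ± 8.90 FPKM in MLg control (3.99, SE 0.18). Mest averaged 40.0 ± 6.19 FPKM in NIH-3T3 control and 1.33 ± 0.333 FPKM in MLg control (4.47, SE 0.19). Plagl1 averaged 78.3 ± 21.3 FPKM in NIH-3T3 control and 5.84 ± 2.37 FPKM in MLg control (3.68, SE 0.33), and Grb10 156 ± 27.2 FPKM in NIH-3T3 control and 42.0 ± 10.5 FPKM in MLg control (1.90, SE 0.17).

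The other genes are given by their levels. Cdkn1c averaged 0.0610 ± 0.0440 FPKM in NIH-3T3 control and 10.5 ± 2.16 FPKM in MLg control, and Sgce was at most 0.0927 FPKM in NIH-3T3 control against 55.2 ± 0.144 FPKM in MLg control. Peg10 had a listed value of 0 in each NIH-3T3 control library and averaged 1.71 ± 0.257 FPKM in MLg control. Peg3 averaged 16.4 ± 6.02 FPKM in NIH-3T3 control and 28.8 ± 6.15 FPKM in MLg control (-0.85, SE 0.28, limma adjusted p = 0.0207). Peg3 missed the threshold when NIH-3T3 control replicate 2 (adjusted p = 0.0802) or MLg control replicate 3 (0.0818) was left out and with 6 libraries per fit (0.0503). Igf2r was not called (-0.07, 95% interval -0.38 to 0.24).

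The order of levels differed between the lines. In NIH-3T3 control it ran from Igf2 and H19 through Grb10, Igf2r, Plagl1, Mest and Peg3 to Cdkn1c, Sgce and Peg10, and each gene's libraries lay apart from those of the next, except that Igf2r overlapped Plagl1, and Sgce overlapped both Cdkn1c and Peg10. In NIH-3T3 SHHN, H19 and Igf2 overlapped and Mest stood above Plagl1. In MLg control the order was Igf2r, H19, Sgce, Grb10, Igf2, Peg3, Cdkn1c, Plagl1, Peg10 and Mest, with overlap from Grb10 to Peg3 and between Peg10 and Mest. In MLg SHHN, H19 was above Igf2r in every library. The 10 genes together held 0.590% to 1.16% of all FPKM in NIH-3T3 SHHN libraries against 0.434% to 0.546% in NIH-3T3 control, and 0.0957% to 0.119% in MLg SHHN against 0.0653% to 0.0804% in MLg control. H19 and Igf2 made up 84.6% to 91.5% of that sum in NIH-3T3 SHHN and 85.3% to 88.3% in NIH-3T3 control, and 52.6% to 57.9% in MLg SHHN against 28.9% to 32.5% in MLg control.

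Other imprinted genes were taken from a list of 48 written from general knowledge, and 29 of them passed the filter. In NIH-3T3, 7 rose and 6 fell, where 31.4% of all genes tested were called, and in MLg 2 rose and 2 fell, where 22.8% were. The median log2 fold change was 0.04 in each line. The 7 that rose in NIH-3T3 count both Snrpn and Snurf, which are read from the same transcript. The 6 that fell there include Dcn, which is also among the fibroblast markers. Asb4, a subunit of ubiquitin ligases, was at 1.996, 1.004 and 1.08 FPKM in NIH-3T3 SHHN against 8.91, 6.23 and 9.56 FPKM in NIH-3T3 control (-2.25, SE 0.20, limma adjusted p = 1.45e-06), and at most 0.0250 FPKM in MLg. Peg12, a relative of the Wnt regulator Frat1, averaged 6.08 ± 0.571 FPKM in NIH-3T3 SHHN and 2.13 ± 0.260 FPKM in NIH-3T3 control (1.32, SE 0.17). In MLg, Peg12 averaged 7.08 ± 1.63 FPKM with SHHN and 8.45 ± 1.10 FPKM in control, and was not called (-0.26, limma adjusted p = 0.321). Its difference between the lines was 1.58 (SE 0.23, limma adjusted p = 6.47e-04).

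Snrpn, which encodes a protein of small nuclear ribonucleoproteins, was called in both lines. It averaged 5.29 ± 0.864 FPKM in NIH-3T3 SHHN and 1.43 ± 0.582 FPKM in NIH-3T3 control (1.63, SE 0.23, limma adjusted p = 1.09e-04), and 8.96 ± 2.39 FPKM in MLg SHHN and 3.92 ± 0.214 FPKM in MLg control (1.07, SE 0.23, limma adjusted p = 0.00384). Snurf, named here after its values were seen, is read from the same transcript, so the division of reads between these genes is uncertain. Snurf lay close to Snrpn in NIH-3T3, at 5.24 ± 0.868 FPKM with SHHN and 1.43 ± 0.586 FPKM in control. In MLg SHHN libraries 1 to 3, however, Snurf was at 6.70, 2.74 and 1.13 FPKM while Snrpn was at 6.77, 8.60 and 11.5 FPKM, against 4.07, 3.87 and 3.68 FPKM of Snurf in MLg control. Snurf was not called in MLg (-0.38, limma adjusted p = 0.565), and the size of the Snrpn change there is uncertain. Slc38a4, an amino acid transporter, fell in both lines. It averaged 38.7 ± 4.84 FPKM in NIH-3T3 SHHN and 72.6 ± 13.7 FPKM in NIH-3T3 control (-0.89, SE 0.21). In MLg it averaged 1.03 ± 0.407 FPKM with SHHN and 2.29 ± 0.494 FPKM in control (-0.89, SE 0.21), and Osbpl5, a lipid transfer protein, 21.9 ± 2.50 FPKM with SHHN and 31.6 ± 2.79 FPKM in control (-0.52, SE 0.12).

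Without ligand, 10 of the 29 were higher and 7 lower in NIH-3T3 than in MLg, where 24.4% of all genes tested were higher and 25.7% lower. The 10 include Asb4, which passed the filter only through the NIH-3T3 libraries, so that its direction was fixed. The 7 count both Snrpn and Snurf, which share a transcript. Slc38a4 averaged 72.6 ± 13.7 FPKM in NIH-3T3 control and 2.29 ± 0.494 FPKM in MLg control (4.71, SE 0.21). Impact, a regulator of translation under amino acid starvation, averaged 42.1 ± 7.31 FPKM in NIH-3T3 control and 2.30 ± 0.363 FPKM in MLg control (3.92, SE 0.19).

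For each imprinted gene, the named gene with the highest Pearson correlation of log2(FPKM + 0.5) over the 12 libraries was sought among 10718 genes with a mean of at least 1 FPKM. The libraries fall into 4 groups and are shared by all genes, so the correlations mostly follow the group means and carry no test. H19 was most like Slit3, a guidance ligand (r = 0.993), which averaged 122 FPKM in NIH-3T3 SHHN, 62.2 FPKM in NIH-3T3 control, 11.8 FPKM in MLg SHHN and 2.02 FPKM in MLg control. Igf2 was most like Rnf112 (0.995), Mest like the collagen gene Col15a1 (0.996), Grb10 like L3hypdh (0.991) and Plagl1 like Gorab (0.988). Cdkn1c was most like the homeobox gene Hoxb2 (0.999), Sgce like the transcription factor Sim2 (0.999) and Peg10 like the ferroxidase gene Heph (0.999), all near 0 in NIH-3T3. Peg3 was most like Rad54l2 (0.984), and the weakest match was that of Igf2r with Tulp4 (0.883).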

How the data were processed

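RNA was sequenced from 12 libraries of NIH-3T3 and MLg cells given SHHN or vehicle, 3 per group. The FPKM values were computed and deposited by the authors, with 1 column per library. Per the submitters' processing notes, bcl2fastq, TopHat2 2.0.12 and Cufflinks 2.2.1 were used with mm10; the annotation, the strand setting and any scaling between libraries are not given in the sources used here. The table had 24347 rows, of which 1 without values was left out. Each column's name gives the line, the treatment and the replicate, and these fixed its sample.

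A gene was tested where 3 or more libraries reached 0.5 FPKM (12379 genes). Values were put on the log2(FPKM + 0.5) scale, and limma 3.58.1 (R 4.3.3) estimated the 4 groups jointly, letting the variance follow the mean level. Such fold changes understate the change of low genes. Tests were made of the SHHN effect within NIH-3T3 and within MLg, of the difference of these effects, and of the control lines. P-values are two-sided and Benjamini-Hochberg adjusted over all genes tested, with a threshold of 0.05. The fit was tested on simulated data. Errors are SD over libraries or SE of the fit, and intervals are 95%.

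Read counts were not used here. Low values times exonic length were searched for whole multiples of a step (tolerance 0.1), and at the best of many steps 23.7% to 32.5% were whole. Arbitrary values give 20% at any single step and more at the best of many. Depth is therefore unknown and no counting interval is given. FPKM totals were 470218 to 659862 per library and do not measure depth.

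The imprinted genes and lists were chosen with earlier results of these data known. From other lists, the 3 genes with the smallest p per comparison were named; Casd1 and the chromosome 6 neighbours, Hymai, the microRNA hairpins, Gli1 and the motifs were chosen after values were seen. Positions, promoters and microRNAs are from RefSeq (GRCm38.p6, the same assembly as mm10), in which 95.1% of symbols were found; strands are from GENCODE M21. After removal of group means, same-numbered SHHN and control libraries of MLg had correlations over genes of 0.132, 0.157 and 0.241. NIH-3T3 gave -0.001, -0.101 and 0.027, and same-numbered control libraries of NIH-3T3 and MLg gave -0.072, 0.445 and 0.395. The main fit holds no pairing term, and the numbers are taken as pairs only in the replicate block. Alternatives were the replicate block, each library left out, robust variances, 6 libraries per fit, median-ratio or quantile scaling, pseudocounts of 0.1 and 1, a stricter filter of 1 FPKM and none.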

Additional observations from a re-analysis of the deposited data

Results flagged for a closer look

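The effect of SHHN differed between the lines for Mest and Plagl1, by a limma test of the difference itself (NIH-3T3 minus MLg, log2 scale). The difference was 1.47 for Mest (SE 0.27, limma adjusted p = 0.00294) and -1.92 for Plagl1 (SE 0.46, limma adjusted p = 0.0143), and both calls held under every alternative run. The fit also gave 0.83 for Cdkn1c (SE 0.24, limma adjusted p = 0.0389) and 0.54 for Sgce (SE 0.17, limma adjusted p = 0.0465). These genes were near 0 in both NIH-3T3 groups and passed the filter through MLg, so that the pseudocount sets their NIH-3T3 effect near 0. The values restate the falls in MLg, and whether the lines differ cannot be read from them. The Cdkn1c call ended without any of 8 libraries in turn and the Sgce call without any of 11. The Sgce call also ended with the replicate block (adjusted p = 0.0732). For Cdkn1c the adjusted p over all alternatives ran up to 0.212, with a pseudocount of 0.1, and for Sgce up to 0.44, with the same pseudocount.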

How the results depend on the processing

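No fold change of the imprinted genes changed sign among called results, and of 830 values under alternatives 786 kept their side of the threshold, 37 lost the call and 7 gained one. The counts that follow take in Cdkn1c, Sgce and Peg10, whose values near 0 in NIH-3T3 allow no reading between the lines. With a pseudocount of 0.1, 1 of the 10 genes was called in MLg in place of 3, and 2 in place of 4 for the difference between lines, which was also 2 with no filter and with quantile normalization. The MLg changes of Sgce and Cdkn1c kept their size with that pseudocount, at -0.59 and -0.86. Their SE, which pools the NIH-3T3 libraries near 0, rose to 0.24 and 0.30. Leaving out a library gave 2 to 4 such calls of the difference, at 2 without NIH-3T3 SHHN replicate 2, NIH-3T3 control replicate 1, MLg SHHN replicate 1 or 3, or MLg control replicate 2. Over all genes the difference gave 1662 calls, and 1093 to 2345 with a library left out, the lowest without MLg SHHN replicate 3. With the replicate block, 4 genes were called in NIH-3T3, 3 in MLg, 4 for the difference and 9 between controls; H19 gained and Sgce lost the call of the difference, and no other of these calls changed. Scaling moved the median of all genes by at most 0.041 (log2). Without read counts, levels near 0 have no detection limit.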

Other observations

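Of 13 genes that act with Igf2, Igf2r and Grb10 (ligand, receptors, substrates, RNA-binding and IGF-binding proteins), 12 passed the filter. In NIH-3T3, 4 rose and 3 fell, where 31.4% of all genes tested were called, and in MLg 3 rose and 3 fell, where 22.8% were. The 3 that rose in MLg include Igfbp3, whose direction there was fixed by the filter. The median log2 fold change was -0.08 in NIH-3T3 and -0.17 in MLg. Igfbp4, a secreted protein that binds insulin-like growth factors, rose in both lines. It averaged 148 ± 40.5 FPKM in NIH-3T3 SHHN and 34.1 ± 6.59 FPKM in NIH-3T3 control (2.08, SE 0.20, limma adjusted p = 3.12e-06), and 1584 ± 95.7 FPKM in MLg SHHN and 453 ± 68.8 FPKM in MLg control (1.82, SE 0.20, limma adjusted p = 1.53e-05). Igfbp6, which prefers Igf2, averaged 398 ± 41.8 FPKM in NIH-3T3 SHHN and 239 ± 66.6 FPKM in NIH-3T3 control (0.76, SE 0.18), and 154 ± 7.11 FPKM in MLg SHHN and 48.8 ± 9.20 FPKM in MLg control (1.66, SE 0.18).

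Irs1, a substrate of the insulin and IGF1 receptors, averaged 29.1 ± 4.88 FPKM in NIH-3T3 SHHN and 12.7 ± 3.08 FPKM in NIH-3T3 control (1.18, SE 0.17, limma adjusted p = 1.33e-04). In MLg it went the other way, at 26.0 ± 1.35 FPKM with SHHN and 37.7 ± 3.73 FPKM in control (-0.53, SE 0.17, limma adjusted p = 0.0409, and 0.051 with the replicate block). That MLg call also ended with no filter, without NIH-3T3 SHHN replicate 2 and without any of the MLg libraries in turn. The difference of the effects was 1.70 (SE 0.24, limma adjusted p = 4.97e-04). Igfbp3 was listed at 0 in all NIH-3T3 libraries and averaged 0.816 ± 0.264 FPKM in MLg SHHN and 0.1004 ± 0.0467 FPKM in MLg control. It passed the filter only through the MLg SHHN libraries, so a rise in MLg had to follow, and only its levels are given. Without ligand, Igfbp4 was lower in NIH-3T3 control than in MLg control by a log2 difference of -3.72 (SE 0.20), and Igfbp6 higher by 2.26 (SE 0.18).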
